A study of Mus musculus with 2 samples.

Results

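The genes described here were 43 genes induced by type I interferon, chosen by name from a list of interferon-stimulated genes. Of these, 42 had a row among the 31053 genes of the deposited matrix. Mx2 had no row and was not analysed here. Leucocytes, taken as viable cells positive for CD45, were sorted from B16 melanomas grown in mice aged 8 weeks and profiled by droplet single-cell RNA sequencing. WT mice carried Mettl3 fl/fl alleles and no Cre, and KO mice carried the same Mettl3 fl/fl alleles together with Lyz2 cre/+, a Cre recombinase placed in 1 allele of Lyz2. Lyz2 is active in macrophages, monocytes and granulocytes, so lymphocytes and tumour cells of the KO mice were not the target of the deletion. Mettl3 encodes the methyltransferase that writes N6-methyladenosine on RNA. Each genotype was represented by 1 library, made from the pooled cells of several animals, and the variation among animals is therefore unknown and no statistical test was run. Every difference below compares these 2 libraries, and every interval is a 95% interval that covers counting error only.

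Type I interferons, interferon alpha and interferon beta, are released by cells that sense foreign or misplaced nucleic acid, and they bind the receptor made of Ifnar1 and Ifnar2. The receptor activates the kinases Jak1 and Tyk2, which phosphorylate transcription factors, Stat2 among them. With Irf9 these form the complex ISGF3, which binds a DNA motif called the interferon-stimulated response element (ISRE) in the promoters of its target genes. The products of these targets degrade or trap viral RNA, sense nucleic acids or modify proteins, and several of them limit the response itself. In tumours such genes are found active in myeloid cells and serve as a readout of interferon signalling.

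The ISRE was looked for in RefSeq promoter windows (GRCm38.p6, 250 bases before to 50 after the transcript start), which were at hand for 32 of the 43 genes. The letters GAAANNGAAA, or TTTCNNTTTC when read on the opposite strand, were in a window of 17 of the 32 genes (53.1%), against 1079 of 27025 genes with a window (3.99%). The letters TTCNNNGAA, the same on both strands and the core of the gamma-activated site, were in windows of 6 of the 32 genes (18.8%) and of 2582 of all genes (9.55%). The motifs overlapped in 1 of the 39 windows of these genes. The windows below were taken from the genes that had the ISRE letters, and these genes are described later. Bst2 and Trim30a among them were under 1.5-fold in macrophage-like cells, whereas Oasl1 and Cmpk2, which were past it there, had no ISRE letters. The capitals mark the ISRE letters with 10 flanking bases on each side, in the direction of the gene.
Isg15, chr4:156200865-156200894, minus strand: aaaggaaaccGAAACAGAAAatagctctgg
Rsad2, chr12:26456553-26456582, minus strand: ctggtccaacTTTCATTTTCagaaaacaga
Ifit1, chr19:34640794-34640823, plus strand: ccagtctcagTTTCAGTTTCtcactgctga
Ifit3, chr19:34583397-34583426, plus strand: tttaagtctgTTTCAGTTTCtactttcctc
Oas1a, chr5:120907520-120907549, minus strand: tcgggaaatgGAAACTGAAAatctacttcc
Bst2, chr8:71537577-71537606, minus strand: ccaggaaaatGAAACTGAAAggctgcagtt
Trim30a, chr7:104446104-104446133, minus strand: ttgtttttagTTTCTTTTTCtcagttcctg

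The motif centre lay 61 bases before the transcript start in Isg15, 115 before it in Rsad2 and 80 before it in Ifit1. In Ifit3 it lay 117 bases, in Oas1a 9 bases and in Bst2 119 bases before the start, whereas in Trim30a it lay 7 bases after it. A match of letters is a description of the window and not a measured binding site. The median log2 ratio of KO to WT described below was 0.61 over 14 genes with the letters and 0.63 over 13 without them in macrophage-like cells. It was 0.77 over 15 and 0.78 over 14 in monocyte-like cells, and 0.82 over 13 and 0.55 over 14 in conventional DC-like cells.

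Before the members, the labels and the libraries were checked. Mettl3 had 130 UMIs in macrophage-like cells labelled WT (9.10 UMIs per 1000000 UMIs of the class, written CPM below) and 161 UMIs in those labelled KO (11.1 CPM), a ratio of 1.22 with an interval of 0.964 to 1.55. Mettl3 UMIs were therefore not lower in the library labelled KO, and 3' tags count the end of a transcript and were not checked against the deleted exons. Lyz2, which loses 1 intact allele to the Cre insertion, had 5920 CPM in macrophage-like cells labelled WT and 2706 CPM in those labelled KO, a ratio of 0.457. The genotypes are therefore given as labelled. The library labelled WT held 5895 barcodes and 45963969 UMIs and the library labelled KO 8446 barcodes and 54052317 UMIs. After filtering, 5405 and 7625 cells were kept, with medians of 4148 and 3567 UMIs. Cell classes were rebuilt by clustering with the members and the other interferon genes left out, and 13 barcode sequences occurred in both libraries. Cells set aside as mixed lineages were 6.60% of the kept cells in the WT library and 3.55% in the KO library, and cells in clusters without a class name were 19.8% and 24.2%. Of the unnamed clusters, those led by Ednrb (with Ccr2 and the macrophage markers) and by Inhba (with Nos2 and Vegfa) are described by their leading gene.

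The interferon-stimulated genes were more abundant in the library labelled KO in macrophage-like, monocyte-like and dendritic cells. In B-like cells the interval of the ratio included 1, and in NK-like cells the ratio changed side without the barcode with the most member UMIs in each library. Summed over the 42 genes, macrophage-like cells had 2467 CPM (interval 2441 to 2492; 1069 cells) labelled WT and 3918 CPM (3886 to 3950; 1488 cells) labelled KO, a ratio of 1.59. Monocyte-like cells had 4054 CPM (3975 to 4135; 591 cells) and 7194 CPM (7124 to 7264; 1598 cells), a ratio of 1.77. Conventional DC-like cells had 2307 CPM (353 cells) and 3697 CPM (403 cells), a ratio of 1.603 with an interval of 1.55 to 1.65. In each of these classes the intervals of the libraries did not overlap. Cells of the Inhba-led cluster had 4738 CPM (185 cells) and 7282 CPM (461 cells), a ratio of 1.54. Those of the Ednrb-led cluster had 3571 CPM and 4500 CPM, a smaller ratio of 1.26 (1.23 to 1.29). Mature DC-like cells had 2044 CPM and 2724 CPM (ratio 1.33, interval 1.24 to 1.43), and plasmacytoid DC-like cells, the specialised producers of interferon alpha, had 4089 CPM in 97 cells and 6304 CPM in 108 cells (ratio 1.54, interval 1.46 to 1.63).

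The lymphoid and melanoma-like classes were lower in level, and granulocyte-like cells were high in both libraries. T-like cells had 1274 CPM labelled WT and 1446 CPM labelled KO, a ratio of 1.14 (1.09 to 1.19). B-like cells had 1484 CPM and 1492 CPM (ratio 1.01, interval 0.855 to 1.18), and NK-like cells 1866 CPM and 1744 CPM (ratio 0.935, interval 0.834 to 1.05). In NK-like cells labelled WT 1 barcode held 26.4% of the member UMIs, and without the barcode with the most member UMIs in each library the values were 1407 CPM and 1702 CPM, a ratio of 1.21 (1.07 to 1.37). The NK-like ratio was also 1.52 (1.07 to 2.22) among the shallowest cells and 0.725 (0.621 to 0.847) among the deepest ones. Melanoma-like cells, which stood in the CD45 sort and carry no Cre, had 1116 CPM and 1633 CPM, a ratio of 1.46 (1.42 to 1.51). Granulocyte-like cells had the highest level in the library labelled WT, 5186 CPM in 656 cells, and 5632 CPM in 281 cells labelled KO, a ratio of 1.09 (1.03 to 1.15). In 10 of the 12 classes the interval of the ratio was above 1, and in the B-like and NK-like classes it included 1 with every barcode kept. The granulocyte-like class, counted among the 10, had a summed log2 ratio of 0.12 that was 0.0246 with scaling for composition and -0.21 with the stricter filter on cells.

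**Figure D1:**
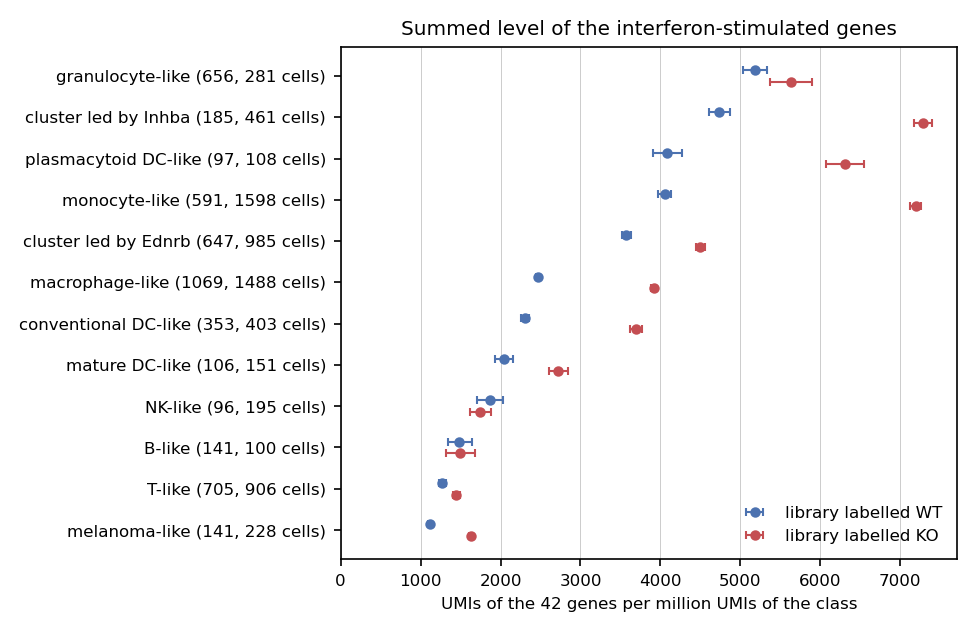
Summed level of the 42 interferon-stimulated genes in each cell class, in UMIs per 1000000 UMIs of the class on a linear axis from 0; points are the 2 libraries (blue WT, red KO) and bars the exact Poisson 95% interval of the sum. The red point of monocyte-like cells stands at 7194 against 4054 for the blue one, whereas the points of B-like cells lie together at 1492 and 1484.

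Gene by gene, the members past a filter on low values (a mean of at least 20 CPM over both libraries and at least 50 UMIs in all) were counted where the ratio of CPM + 1 reached 1.5. Because the filter took the mean, a gene under 20 CPM in 1 library could pass through its level in the other. Among the members counted as higher this held, for example, for Usp18 and Herc6 in macrophage-like cells and Cmpk2 in conventional DC-like cells, with values given below. All genes tested met the same filter. In macrophage-like cells 36 members passed the filter, and 21 of them were at least 1.5-fold higher in the library labelled KO, where 1.48% of all 5478 genes tested were. None was 1.5-fold lower (0.383% of all genes). In monocyte-like cells 29 of 39 were higher, against a background of 3.28%, and none was lower (0.938%). In conventional DC-like cells it was 19 of 36, against 2.01%, with none lower (0.910%). These counts moved with the processing. The monocyte-like count was 13 with members among the variable genes, and the conventional DC-like count was 10 when thinned to 1000 UMIs and 2 when thinned to 500 UMIs. In the cluster led by Inhba 21 of 38 members were higher, where 8.08% of all genes were, and the cluster led by Ednrb held none of 38, where 0.789% were. In that cluster all 38 members that passed still had a log2 ratio above 0, between 0.02 and 0.58. Each of these differences was below 1.5-fold and in the same direction.

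The remaining classes had fewer members past the filter. Mature DC-like cells had 8 of 20 higher (background 5.74%), melanoma-like cells 7 of 16 (1.46%) and plasmacytoid DC-like cells 14 of 17 (9.45%), although 10.1% of the member UMIs of the last class labelled KO came from 1 barcode. In these plasmacytoid DC-like cells the median over cells of the summed member level was 4672 CPM in the WT library and 4710 CPM in the KO library, so the middle cells of the libraries were close in this sum. Bst2 alone had 2752 CPM and 3082 CPM in the class, whereas Isg15 had 48.1 CPM and 369 CPM and Rsad2 14.0 CPM and 231 CPM. The sum of this class therefore mostly followed Bst2. Thinned to 1000 UMIs, the plasmacytoid DC-like cells showed a median of 2 members with a UMI in each library, and 0% and 6.48% of them showed 10 or more. T-like cells had 2 of 22 higher (1.15%) and none lower (0.848%), NK-like cells 1 of 9 (8.36%), and B-like cells none of 4 (10.2%). Granulocyte-like cells had 3 of 29 higher, where 9.06% of all genes were, and 1 lower, where 6.85% were, so their shares were near those of all genes. The median log2 ratio of the members that passed was 0.63 in macrophage-like, 0.77 in monocyte-like, 0.62 in conventional DC-like, 0.14 in granulocyte-like and 0.15 in T-like cells. Over all genes tested the medians in these classes were 0.01, 0.01, 0.03, 0.09 and 0.04.

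**Figure D2:**
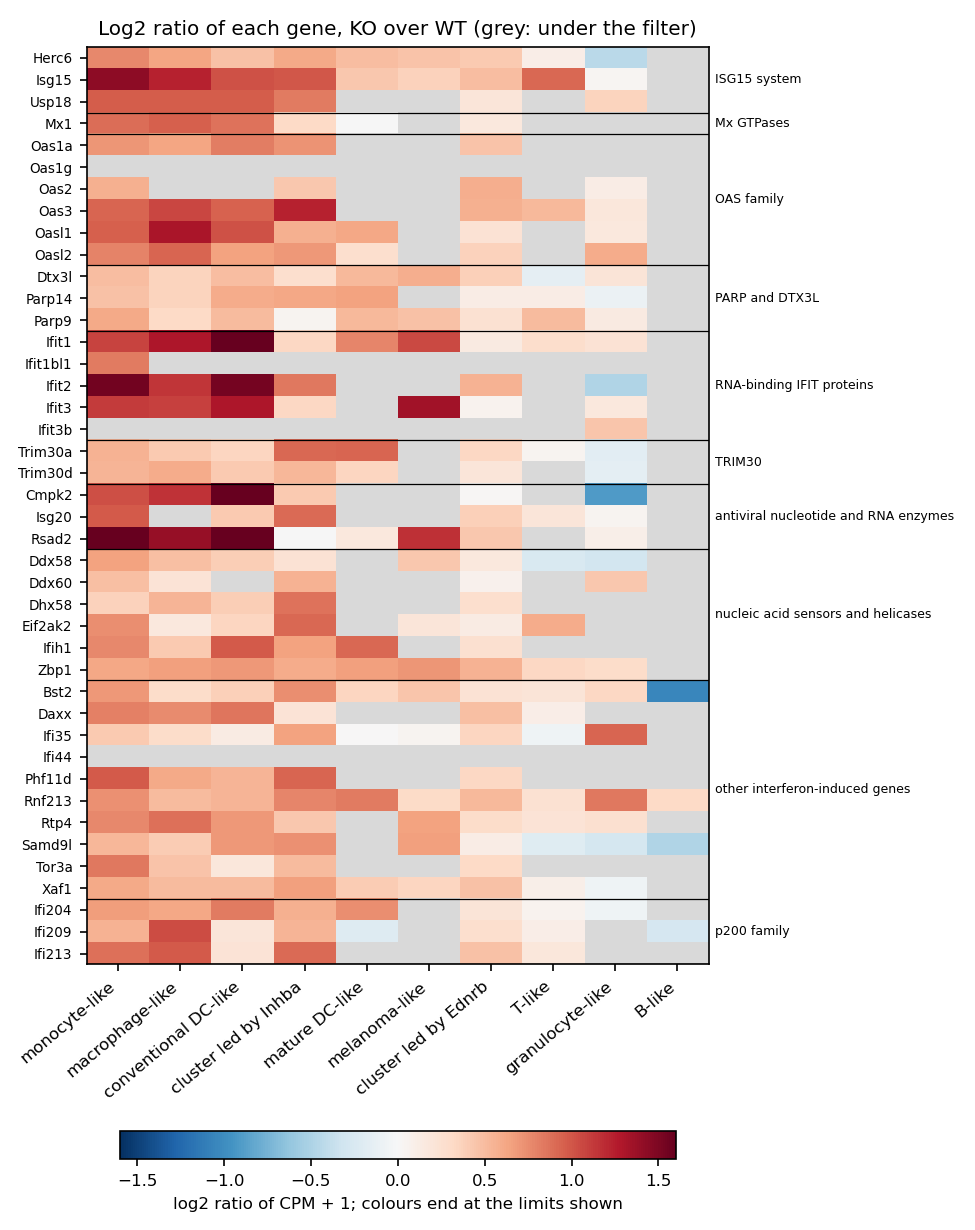
Log2 ratio of CPM + 1, KO over WT, of each of the 42 genes (rows, grouped by role) in the 10 classes with at least 100 cells in both libraries (columns); red is higher in the library labelled KO, blue lower, and grey marks genes under the filter on low values. Red fills the monocyte-like, macrophage-like and conventional DC-like columns, where no gene that passed was below 0, whereas blue occurs mainly in the granulocyte-like, T-like and B-like columns.

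The ISG15 system comprises Isg15, a small protein that is attached to other proteins like ubiquitin, Herc6, the ligase that attaches it, and Usp18, the protease that removes it and also restrains the receptor. Isg15 (ENSMUSG00000035692, GRCm38 chr4:156199424-156200818, minus strand) had 184 CPM in macrophage-like cells labelled WT and 436 CPM in those labelled KO, a ratio of 2.36 (2.26 to 2.48). In monocyte-like cells it had 319 CPM and 863 CPM (ratio 2.71, interval 2.51 to 2.92), and in conventional DC-like cells 182 CPM and 372 CPM (ratio 2.04, interval 1.83 to 2.27). The ratio of Isg15 was thus above 2 in these 3 classes, with intervals that lay above 1. Isg15 was under 2-fold in macrophage-like cells with equal weight for each cluster (log2 ratio 0.97 in place of 1.24). With members among the variable genes it was also under 2-fold in monocyte-like cells (0.92 in place of 1.43). It was also higher in the cluster led by Inhba, with 577 CPM and 1150 CPM, and in T-like cells, with 40.8 CPM and 77.8 CPM (ratio 1.91, interval 1.53 to 2.40), where it had the highest log2 ratio among the members that passed. That log2 ratio of 0.92 in T-like cells ran from 0.75 in the deepest cells to 3.12 in the shallowest ones. Smaller differences stood in the cluster led by Ednrb (329 CPM and 463 CPM), in mature DC-like cells (375 CPM and 505 CPM) and in melanoma-like cells (92.4 CPM and 119.9 CPM). In granulocyte-like cells the values were 601 CPM and 612 CPM, with overlapping intervals, and in B-like cells only 6 UMIs were counted in each library. Usp18 had 14.8 CPM and 30.04 CPM in macrophage-like cells (ratio 2.02), and Herc6 had 16.5 CPM and 26.2 CPM (ratio 1.59).

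The enzymes that act on viral RNA and nucleotides held the gene with the highest ratio in 3 classes. Rsad2 (ENSMUSG00000020641, GRCm38 chr12:26442746-26456452, minus strand) encodes viperin, which makes a nucleotide that terminates viral RNA chains, and Cmpk2 beside it on chromosome 12 encodes a nucleotide kinase. Rsad2 had 66.5 CPM and 176 CPM in macrophage-like cells (ratio 2.65, interval 2.46 to 2.86), 127 CPM and 390 CPM in monocyte-like cells (ratio 3.08, interval 2.73 to 3.48) and 36.8 CPM and 135 CPM in conventional DC-like cells (ratio 3.68, interval 2.96 to 4.60). It was the member with the highest log2 ratio in each of the 3 classes. In macrophage-like cells its log2 ratio of 1.39 was 0.74 in the shallowest cells and 0.79 with the members among the variable genes. Its size in monocyte-like cells also depended on the classing and on the depth of the cells, with a log2 ratio of 1.62 that ran from 0.92 with the members among the variable genes to 3.14 in the shallowest cells. Melanoma-like cells had 48.7 CPM and 111 CPM of Rsad2 (ratio 2.28). In contrast, the cluster led by Inhba had 648 CPM and 645 CPM (ratio 0.996, interval 0.906 to 1.10) although its summed member level was higher in the library labelled KO, and granulocyte-like cells had 590 CPM and 631 CPM (ratio 1.07). Cells of the Ednrb-led cluster had 74.1 CPM and 99.8 CPM. Values in T-like cells (17.5 CPM and 16.6 CPM) and mature DC-like cells (40.1 CPM and 45.3 CPM) had overlapping intervals, and B-like cells had 4 UMIs and 1 UMI. Cmpk2 went the same way in macrophage-like cells, with 20.6 CPM and 47.4 CPM (ratio 2.30), and in conventional DC-like cells, with 12.03 CPM and 41.7 CPM (ratio 3.47, interval 2.36 to 5.22). After thinning to 1000 UMIs the log2 ratio in conventional DC-like cells was 0.80 in place of 1.71 for Cmpk2 and 0.78 in place of 1.85 for Rsad2. In granulocyte-like cells Cmpk2 was the member called lower, with 93 UMIs (102 CPM) and 17 UMIs (53.9 CPM), a ratio of 0.530 (0.296 to 0.894). Its log2 ratio of -0.90 was -0.52 without the barcode with the most member UMIs in each library, which is no longer 1.5-fold, and 0.19 with marker gates. Isg20, an exonuclease of single-stranded RNA, had 25.3 CPM and 51.0 CPM in monocyte-like cells (ratio 2.02, interval 1.53 to 2.70).

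The IFIT genes, 5 of which lie side by side on chromosome 19, encode proteins that bind viral RNA ends lacking the host cap methylation. Ifit1 had 27.9 CPM and 69.8 CPM in macrophage-like cells (ratio 2.50, interval 2.23 to 2.82) and 27.5 CPM and 98.1 CPM in conventional DC-like cells (ratio 3.57, interval 2.77 to 4.64). In the shallowest conventional DC-like cells its log2 ratio was -0.49 in place of 1.80. Ifit2 had 60.5 CPM and 179 CPM in monocyte-like cells (ratio 2.96, interval 2.49 to 3.54). Ifit3 had 25.3 CPM and 55.0 CPM in macrophage-like cells (ratio 2.17). All IFIT genes that passed the filter were at least 1.5-fold higher in macrophage-like (3 of 3, 1.48% of all genes), monocyte-like (4 of 4, 3.28%) and conventional DC-like cells (3 of 3, 2.01%). In granulocyte-like cells none of 4 was, where 9.06% of all genes were, so 4 genes were too few to differ from that share. Ifit2 had 61 and 15 UMIs in granulocyte-like cells (ratio 0.713, interval 0.376 to 1.27). Ifit3b and Ifit1bl1 stayed under the filter in macrophage-like cells, with 58 and 49 UMIs labelled WT and 144 UMIs each labelled KO. Of the 50-base words in the last 500 bases of Ifit3 transcripts, 14.9% were shared with Ifit3b, so reads of these neighbours could not all be told apart.

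The OAS family makes the second messenger that activates the nuclease RNase L, and its relative Oasl1 inhibits translation of Irf7. Oasl1 had 33.9 CPM and 85.3 CPM in macrophage-like cells, a ratio of 2.52 (2.26 to 2.80) and the next highest log2 ratio there after Rsad2. Oas3 had 21.8 CPM and 47.1 CPM (ratio 2.16) and Oasl2 50.9 CPM and 97.7 CPM (ratio 1.92) in the same cells. Oas1a had 33.2 CPM and 51.9 CPM (ratio 1.57), with 56.1% of its 3' words shared with Oas1g, which makes their separate values uncertain. Of the OAS genes that passed the filter, 4 of 4 were 1.5-fold higher in macrophage-like cells (1.48% of all genes), 4 of 5 in monocyte-like cells (3.28%) and 4 of 4 in conventional DC-like cells (2.01%). Oasl2 was also among the 3 members above 1.5-fold in granulocyte-like cells, with 372 CPM and 561 CPM (ratio 1.51, interval 1.251 to 1.81) and a log2 ratio that ran from 0.21 to 0.72 over the alternatives, and Oas3 had 47 and 83 UMIs in T-like cells (ratio 1.46, interval 1.01 to 2.14). Mx1, a dynamin-like GTPase that traps viral nucleocapsids, had 21.3 CPM and 42.4 CPM in macrophage-like cells (ratio 1.99, interval 1.73 to 2.29) and 62.5 CPM and 117 CPM in monocyte-like cells.

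Of the 6 sensors of nucleic acid, all of which passed in these classes, 1 reached 1.5-fold in macrophage-like cells (1.48% of all genes), 4 in monocyte-like cells (3.28%), 4 in the cluster led by Inhba (8.08%) and none in the cluster led by Ednrb (0.789%). Fewer passed elsewhere, with 2 of 5 higher in conventional DC-like (2.01%), 2 of 2 in mature DC-like (5.74%), 1 of 3 in T-like (1.15%), 1 of 3 in melanoma-like (1.46%) and none of 3 in granulocyte-like cells (9.06%). Zbp1 (ENSMUSG00000027514, GRCm38 chr2:173206612-173218923, minus strand), a sensor of left-handed nucleic acid, had 98.3 CPM and 155 CPM in macrophage-like cells (ratio 1.58, interval 1.48 to 1.69), where its log2 ratio of 0.65 was 0.47 in the deepest cells. It was called higher in more of the 10 classes than any other member, 6 of them: monocyte-like (221 CPM and 340 CPM), conventional DC-like (110 CPM and 177 CPM), mature DC-like (67.4 CPM and 106 CPM) and melanoma-like cells (19.0 CPM and 31.7 CPM), the cluster led by Inhba (174 CPM and 262 CPM) and macrophage-like cells. Ifit1, Isg15 and Oasl2 followed with 5 each, and the macrophage-like call of Zbp1 was lost in the deepest cells and, narrowly, with equal weight for each cluster (log2 ratio 0.584). In the cluster led by Ednrb Zbp1 had 173 CPM and 254 CPM (ratio 1.47), and in granulocyte-like cells 114 CPM and 139.5 CPM with overlapping intervals. In T-like cells it had 51.1 CPM and 64.8 CPM (ratio 1.27), and in B-like cells 11 UMIs in each library. The smallest ratios of macrophage-like cells belonged to Eif2ak2 and the helicase gene Ddx60. Ddx60 had 20.4 CPM and 23.9 CPM (ratio 1.17, interval 0.998 to 1.37), and among the members that passed it was the 1 whose interval included 1. Eif2ak2, the kinase PKR that stops translation on double-stranded RNA, had 38.3 CPM and 43.3 CPM (ratio 1.13, interval 1.01 to 1.27), the lowest log2 ratio of macrophage-like cells. In T-like cells Eif2ak2 was 1 of the 2 members above 1.5-fold, with 21.1 CPM and 32.2 CPM (ratio 1.53, interval 1.10 to 2.14) and a log2 ratio of 0.59 that was 0.56 without the barcode with the most member UMIs and 0.39 with marker gates, whereas Ddx58, the sensor RIG-I, had 38.6 CPM and 32.5 CPM (ratio 0.842, interval 0.640 to 1.11). Dhx58, the helicase LGP2, had the lowest log2 ratio of monocyte-like cells, with 46.2 CPM and 59.9 CPM (ratio 1.30, interval 1.04 to 1.62). After thinning to 500 UMIs the log2 ratio was -0.27 for Dhx58 in monocyte-like cells and -0.21 for Eif2ak2 and -0.29 for Ddx60 in macrophage-like cells, opposite in sign to the values without thinning. Ddx60 was also below 0 when thinned to 1000 UMIs (-0.14).

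The p200 family binds DNA in the nucleus and cytosol. Ifi204 (ENSMUSG00000073489, GRCm38 chr1:173747293-173766943, minus strand) had 159 CPM and 244 CPM in macrophage-like cells (ratio 1.54, interval 1.46 to 1.63), 404 CPM and 641 CPM in monocyte-like cells (ratio 1.59) and 81.1 CPM and 145 CPM in conventional DC-like cells (ratio 1.79, interval 1.52 to 2.11). Its log2 ratio of 0.62 in macrophage-like cells was under 1.5-fold in the middle (0.51) and deepest (0.41) groups of cells, with equal weight for each cluster (0.53), with marker gates (0.52), with Leiden resolution 2 (0.57) and with the Ednrb-led and Inhba-led clusters joined to the class (0.58). The cluster led by Inhba had 375 CPM and 559 CPM, and mature DC-like cells had 28.9 CPM and 49.0 CPM (ratio 1.70, interval 0.9497 to 3.14). Its intervals overlapped in granulocyte-like cells (219 CPM and 209 CPM) and T-like cells (21.8 CPM and 22.8 CPM), and it was a little higher in the cluster led by Ednrb (284 CPM and 328 CPM), and had 20 and 48 UMIs in melanoma-like cells and 5 and 3 UMIs in B-like cells. Ifi209 had 47.0 CPM and 97.9 CPM in macrophage-like cells (ratio 2.08) but 109 CPM and 124 CPM in conventional DC-like cells (ratio 1.15, interval 0.982 to 1.34). Its 3' words were shared with Ifi214 in 63.4% of cases, so its counts are uncertain.

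The ubiquitin ligases Trim30a and Trim30d, the adenosine diphosphate ribosyltransferases Parp9 and Parp14 and the Parp9 partner Dtx3l had log2 ratios between 0.32 and 0.60 in macrophage-like and monocyte-like cells. Trim30a (ENSMUSG00000030921, GRCm38 chr7:104409025-104465193, minus strand) had 94.8 CPM and 127 CPM in macrophage-like cells (ratio 1.33, interval 1.24 to 1.43), 198 CPM and 292 CPM in monocyte-like cells (ratio 1.48) and 158 CPM and 202 CPM in conventional DC-like cells (ratio 1.27). It passed 1.5-fold in the cluster led by Inhba (101 CPM and 192 CPM, ratio 1.89) and in mature DC-like cells (67.4 CPM and 129.7 CPM, ratio 1.93, interval 1.335 to 2.82), and had 140 CPM and 176 CPM in the cluster led by Ednrb. In granulocyte-like cells it had 401 CPM and 355 CPM and in T-like cells 70.8 CPM and 73.0 CPM, with ratios whose intervals included 1. B-like cells had 16 and 17 UMIs and melanoma-like cells 42 and 127 UMIs. None of Parp9, Parp14 and Dtx3l reached 1.5-fold in macrophage-like cells, where their log2 ratios lay between 0.32 and 0.35. In T-like cells Dtx3l had 70.1 CPM and 63.6 CPM (ratio 0.907, interval 0.744 to 1.11), and in monocyte-like cells Parp14 had 179 CPM and 248 CPM (ratio 1.39, interval 1.247 to 1.55).

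Bst2 led the other interferon-induced genes in macrophage-like cells by its level. Bst2 (ENSMUSG00000046718, GRCm38 chr8:71534255-71537456, minus strand) encodes tetherin, which holds budding virions at the cell surface and is also a surface marker of plasmacytoid dendritic cells. It had 635 CPM and 780 CPM in macrophage-like cells, a ratio of 1.23 (1.19 to 1.26), and 317 CPM and 514 CPM in monocyte-like cells (ratio 1.62, interval 1.499 to 1.76) and 557 CPM and 932 CPM in the cluster led by Inhba (ratio 1.67). Within macrophage-like cells the Vcam1-led cluster had 680 CPM and 643 CPM of Bst2 and the Spp1-led cluster 670.2 CPM and 1133 CPM, so the direction was not the same in each. The log2 ratio of 0.30 in macrophage-like cells was 0.0973 in the deepest cells and 0.82, past 1.5-fold, in the shallowest ones. Conventional DC-like cells had 350 CPM and 455 CPM, the cluster led by Ednrb 526 CPM and 617 CPM, mature DC-like cells 237 CPM and 301 CPM, and melanoma-like cells 458 CPM and 621 CPM. T-like cells had 159 CPM and 184 CPM (ratio 1.16), and granulocyte-like cells 95.2 CPM and 120.5 CPM with overlapping intervals. In B-like cells Bst2 was the member called lower, with 41 UMIs (157 CPM) and 13 UMIs (75.4 CPM), a ratio of 0.480 (0.236 to 0.914), where 5.66% of all genes tested in these cells were at least 1.5-fold lower. Rnf213 (ENSMUSG00000070327, GRCm38 chr11:119393100-119487418, plus strand), a giant ubiquitin ligase, had 136 CPM and 194 CPM in macrophage-like cells (ratio 1.42), 271 CPM and 452 CPM in monocyte-like cells (ratio 1.67) and 121 CPM and 178 CPM in conventional DC-like cells (ratio 1.47). It was also higher in granulocyte-like cells, with 188 CPM and 339 CPM (ratio 1.80, interval 1.40 to 2.31), in the cluster led by Inhba (180 CPM and 310 CPM) and in mature DC-like cells (75.4 CPM and 135 CPM). The remaining values were 200 CPM and 286 CPM in the cluster led by Ednrb, 84.7 CPM and 100.2 CPM in T-like cells, 71.2 CPM and 88.0 CPM in melanoma-like cells and 34 and 28 UMIs in B-like cells. Ifi35, which binds the protein Nmi, had low ratios in 3 classes: 57.7 CPM and 70.9 CPM in macrophage-like cells (ratio 1.23), 87.8 CPM and 117 CPM in monocyte-like cells (ratio 1.34) and 104 CPM and 113 CPM in conventional DC-like cells (ratio 1.09, interval 0.931 to 1.28). In granulocyte-like cells it had 30 and 20 UMIs (ratio 1.93, interval 1.04 to 3.52). The low end also held Tor3a in conventional DC-like cells (48.4 CPM and 55.3 CPM), Samd9l in T-like cells (93.0 CPM and 81.3 CPM) and Herc6 in granulocyte-like cells (51 and 13 UMIs), each with an interval that included 1.

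**Figure D3:**
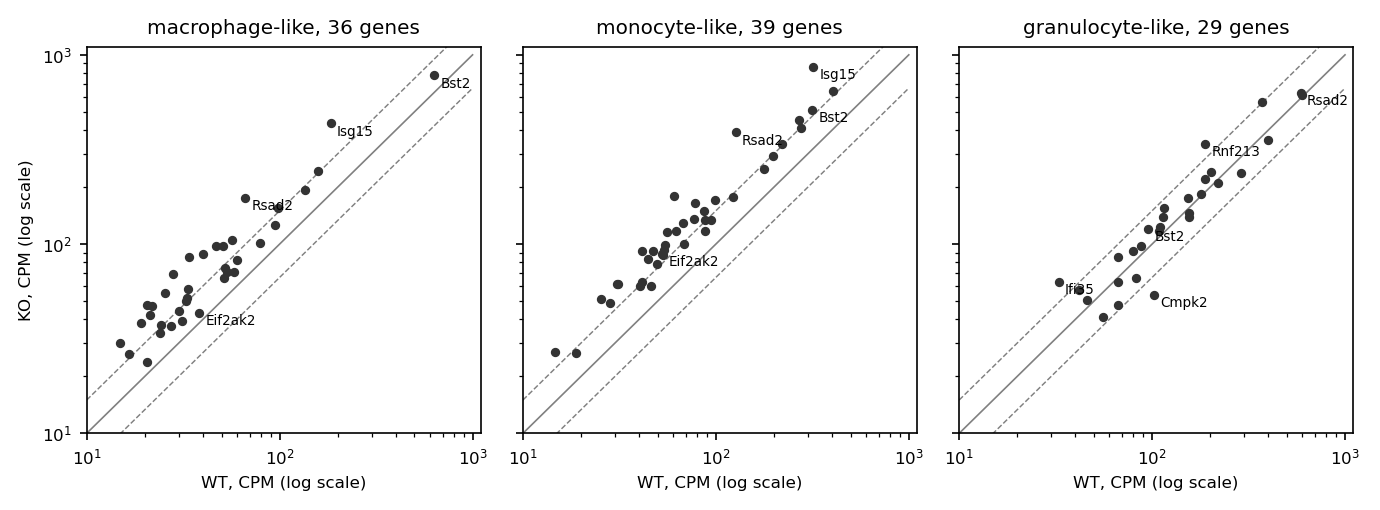
Level of each member past the filter in the library labelled WT (horizontal, CPM, log scale) against the library labelled KO (vertical, CPM, log scale) in macrophage-like, monocyte-like and granulocyte-like cells; each point is 1 gene, the solid line marks equal levels and the dashed lines 1.5-fold. All 36 and 39 points of the first 2 panels lie above the solid line, whereas the 29 points of the third lie on both sides of it.

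Intervals off 1 were common among all genes of these deep sums, above 1 for 22.3% and below 1 for 18.9% of the genes tested in macrophage-like cells. Among the members that passed there, the interval was above 1 for 35 of 36. In monocyte-like cells it was above 1 for all 39 that passed (15% above and 10.4% below over all genes), and in conventional DC-like cells for 28 of 36 (11.6% above and 5.33% below over all genes). In T-like cells it was above 1 for 6 of 22 (11.6% above and 5.65% below over all genes). In granulocyte-like cells it was above 1 for 3 of 29, where 11.3% of all genes were, and below 1 for Cmpk2, where 6.78% were.

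The classes were mixtures, and the clusters within them differed in level and in ratio. Among macrophage-like cells the cluster led by Spp1, an osteopontin-rich type, had 3705 CPM of the members labelled WT and 6653 CPM labelled KO, a ratio of 1.80 (1.751 to 1.84). The cluster led by Vcam1, with the complement C1q genes among its leading genes, had 2364 CPM and 2767 CPM, a ratio of 1.17 (1.15 to 1.20), and the cycling cluster led by Hist1h2ap 2075 CPM and 2884 CPM, a ratio of 1.39. The Spp1-led cluster held 19.6% of macrophage-like cells labelled WT (exact binomial interval 17.3 to 22.2) and 39.9% of those labelled KO (37.4 to 42.4), so the make-up of the class differed between the libraries along with its level. With equal weight for each cluster the log2 ratio of the sum was 0.60 in place of 0.67. Over macrophage-like cells as a whole the 9 monocyte markers summed to 473 CPM labelled WT and 1028 CPM labelled KO, and the 9 macrophage markers to 15945 CPM and 14502 CPM. The monocyte markers also summed to more in the library labelled KO in the cluster led by Inhba (1654 CPM and 2852 CPM), the cluster led by Ednrb (2801 CPM and 3717 CPM), conventional DC-like cells (1549 CPM and 2172 CPM) and plasmacytoid DC-like cells (5179 CPM and 6978 CPM). Their part in these results was not tested.

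Among monocyte-like cells the cluster led by Dmkn, with Vcan, Cxcl10 and the member Ifi209 also among its leading genes, had 5665 CPM and 9448 CPM (ratio 1.67, interval 1.62 to 1.72), and the cluster led by Ace, a marker of nonclassical monocytes, 2956 CPM and 4133 CPM (ratio 1.40). Isg15 alone went from 608 CPM to 1307 CPM in the Dmkn-led cluster and from 122 CPM to 260 CPM in the Ace-led one. The Dmkn-led cluster held 34.2% of monocyte-like cells in the WT library and 49.3% in the KO library, and equal weights gave a log2 ratio of 0.66 in place of 0.83. Among conventional dendritic cells the cDC1-like cluster led by Xcr1 had 1479 CPM and 2485 CPM (ratio 1.68, interval 1.59 to 1.78) and the cDC2-like cluster led by Cd209a 3153 CPM and 4453 CPM (ratio 1.41). The Cd209a-led cluster, with the higher level, held 61.8% of the class in the WT library and 75.2% in the KO library.

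The T-like clusters were unequal. The cluster led by Icos, with the CD4 T cell markers, had 1472 CPM and 2063 CPM (ratio 1.40, interval 1.29 to 1.53) and the cluster led by Gimap3 1956 CPM and 2180 CPM (ratio 1.11). Cells of the cluster led by Gzmf, a granzyme of cytotoxic cells, had 941 CPM and 927 CPM (ratio 0.985, interval 0.919 to 1.06). The intervals of the 2 granulocyte-like clusters lay on opposite sides of 1. The one led by S100a8 had 5778 CPM and 5146 CPM (ratio 0.891, interval 0.828 to 0.957), although its larger part (281 and 144 cells) had 3545 CPM (3361 to 3736) and 4086 CPM (3780 to 4410), and the one led by Lcn2 had 4451 CPM in 301 cells and 6411 CPM in 106 cells (ratio 1.44, interval 1.32 to 1.57). Within the S100a8-led cluster a group of 74 cells labelled WT and 31 labelled KO, 11.3% and 11.03% of the granulocyte-like cells, had 13507 CPM and 10399 CPM, the highest level of the 6 granulocyte-like groups in each library. In the library labelled KO its interval (9321 to 11567) overlapped those of groups of 14 and 12 cells in the Lcn2-led cluster, with 9645 CPM and 8855 CPM. Of the 20 clusters with at least 50 cells in both libraries, 16 had a ratio whose interval was above 1, in 3 it included 1, and in the S100a8-led cluster it was below 1.

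**Figure D4:**
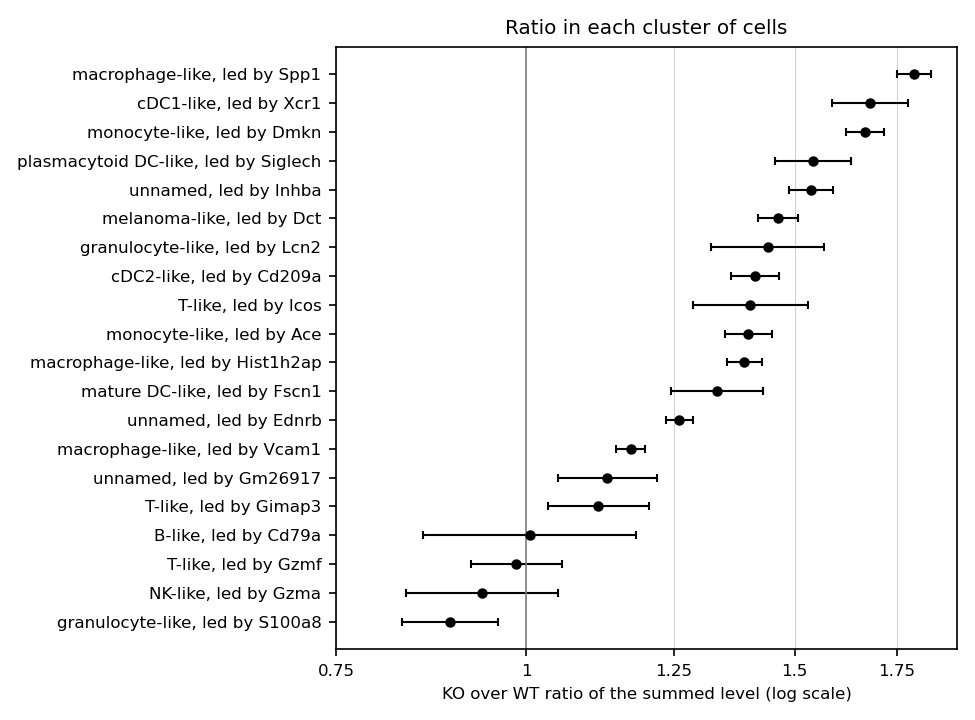
KO over WT ratio of the summed level of the 42 genes (log scale) in each of the 20 clusters with at least 50 cells in both libraries; points are the ratio, bars its exact 95% interval for counting error and the grey line a ratio of 1. The Spp1-led macrophage-like cluster stands highest at 1.80, and the S100a8-led granulocyte-like cluster lowest at 0.891.

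The spread over single cells was wide. Each cell was thinned to 1000 UMIs, since cells labelled KO were shallower. A macrophage-like cell then showed a median of 2 members (quartiles 1 and 3, highest 21) labelled WT and of 3 members (quartiles 1 and 5, highest 23) labelled KO. In monocyte-like cells the medians were 2 and 4 and the 90th percentiles 7 and 11. Cells with at least 10 of the members made up 4.72% of monocyte-like cells in the WT library and 13.8% in the KO library, and cells with none 13.5% and 5.84%. The monocyte-like cells thus differed at both the lower and the upper end of the distribution. In T-like cells the medians were 1 and 1, in granulocyte-like cells 2 and 2 and in B-like cells 1 and 1. Thinning left out 24 and 42 macrophage-like, 19 and 58 monocyte-like and 162 and 141 granulocyte-like cells that had too few UMIs.

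**Figure D5:**
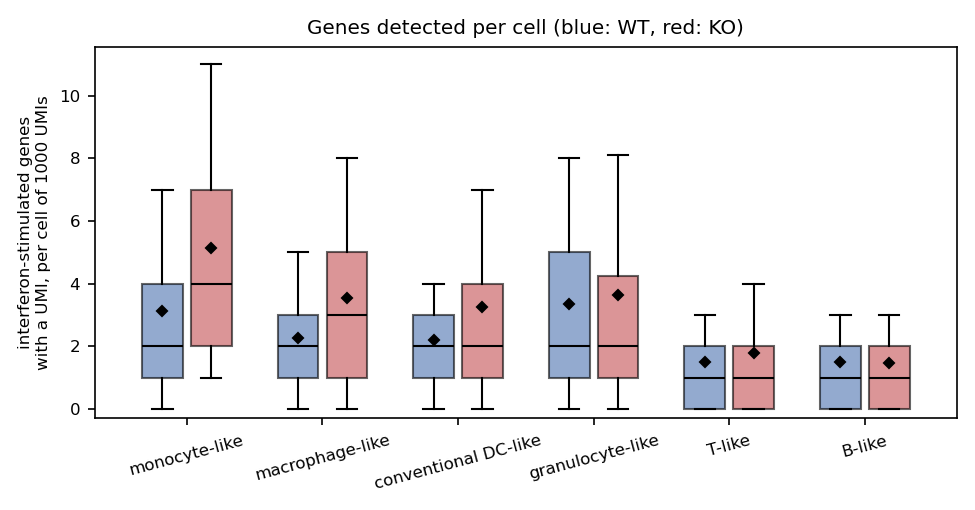
Number of the 42 genes with a UMI in each cell after thinning to 1000 UMIs, in 6 classes; boxes span the quartiles with the median as a line, whiskers reach the 10th and 90th percentile, diamonds mark the mean, blue is WT and red KO. The monocyte-like boxes have medians of 2 and 4, and the T-like and B-like boxes medians of 1.

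Isg15 was detected in 12.9% of thinned macrophage-like cells labelled WT and in 29.7% of those labelled KO, and in 16.6% and 34.9% of thinned monocyte-like cells. Without thinning the shares were 48.2% and 64.7% in macrophage-like cells, at median depths of 11333 and 7756 UMIs. In B-like cells, which had the lowest level of Isg15, the thinned shares were 2.56% and 2.99%. Rsad2 was detected in 5.17% and 10.7% of thinned macrophage-like cells, and in B-like cells in 1.71% and 1.49%. Bst2 was detected in 42.5% and 50.3% of thinned macrophage-like cells. The 10% of macrophage-like cells with the most member UMIs held 36.8% of all member UMIs in each library, and in monocyte-like cells 43.8% and 41.4%. The barcode with the most held at most 3.20% in these classes.

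Cells labelled KO held fewer UMIs, with medians of 7756 against 11333 in macrophage-like cells and 3095.5 against 3833 in monocyte-like cells. When cells were divided into 3 groups of low, middle and high depth, the ratio of the sum in macrophage-like cells was 1.72, 1.48 and 1.39, so it was smaller at greater depth and above 1 throughout. In monocyte-like cells the low group had 3147 CPM and 6294 CPM, and the ratios of the middle and high groups were 1.68 and 1.86. In granulocyte-like cells the ratios were 1.13, 1.03 and 0.946, the last with an interval of 0.856 to 1.04. In the cluster led by Inhba they were 1.15, 2.45 and 1.34, and in mature DC-like cells 0.962 (0.818 to 1.13), 1.59 and 1.30, with an interval that included 1 for mature DC-like cells of low depth. Plasmacytoid DC-like cells had 1.32, 1.09 (0.9752 to 1.22) and 1.87, and melanoma-like cells 2.08, 1.93 and 1.26, so the size in both classes moved with depth. Transcripts of myeloid cells were also found in other classes: Lyz2 had 395 CPM and 160 CPM in T-like cells, and how far free RNA of this kind added to the members' levels there was not tested.

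Few UMIs of the type I interferons themselves were counted. Of the 20 interferon genes on the list, none but Ifng passed the filter in any of the macrophage-like, monocyte-like, granulocyte-like, conventional DC-like and T-like cells. Over all barcodes Ifnb1, the gene of interferon beta, had 34 UMIs in 15 of 5895 barcodes labelled WT and 67 UMIs in 23 of 8446 barcodes labelled KO, with up to 9 and 19 UMIs in a single barcode. In macrophage-like cells Ifnb1 had 23 UMIs and 13 UMIs (ratio 0.558, interval 0.260 to 1.15), and in conventional DC-like cells 0 UMIs and 10 UMIs. Of the interferon alpha genes only Ifna13 had a UMI, 1 in each library. These counts do not show whether interferon was made elsewhere or at another time. Ifng, the gene of interferon gamma, had 652 UMIs (233 CPM) in T-like cells labelled WT and 950 UMIs (281 CPM) in those labelled KO, a ratio of 1.21 (1.09 to 1.33).

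In macrophage-like and monocyte-like cells the receptor genes that passed stayed within 1.5-fold. In granulocyte-like cells 1 of the 4 that passed was lower, with a log2 ratio of -0.99, where 6.85% of all genes were. Ifnar1 had 84.9 CPM and 92.0 CPM in macrophage-like cells (ratio 1.08, interval 1.002 to 1.17) and 107 CPM and 102 CPM in monocyte-like cells, and Ifnar2 had 97.2 CPM and 92.3 CPM and 116 CPM and 103 CPM. None of the 4 receptor genes that passed reached 1.5-fold in either class, and Ifngr1 was lower in monocyte-like cells, with 328 CPM and 223 CPM (ratio 0.681, interval 0.623 to 0.745). Among 8 signal transducers 1 reached 1.5-fold in macrophage-like cells, where 1.48% of all genes were higher, and 2 in monocyte-like cells, where 3.28% were. Irf7, the factor that amplifies the response, had 91.1 CPM and 221 CPM in macrophage-like cells (ratio 2.43, interval 2.27 to 2.59) and 192 CPM and 367 CPM in monocyte-like cells (ratio 1.91). Stat2 had 105 CPM and 173 CPM in monocyte-like cells (ratio 1.64) and 53.4 CPM and 76.2 CPM in macrophage-like cells (ratio 1.43). Socs1, a feedback inhibitor of the receptor kinases, had 89.9 CPM and 155 CPM in monocyte-like cells (ratio 1.73). Of the 12 sensors and adaptors with a row, none that passed the filter was past 1.5-fold in macrophage-like, monocyte-like, conventional DC-like or T-like cells. In the cluster led by Inhba 2 of 8 that passed were higher (8.08% of all genes). In granulocyte-like cells 1 of 3 was lower (log2 ratio -1.05, 6.85% of all genes), and in plasmacytoid DC-like cells 1 of 5 was lower (-0.96), where the share of all genes was not counted. The row for cGAS was the one named Mb21d1, with 24.6 CPM and 25.6 CPM in macrophage-like cells.

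Genes known mainly as targets of interferon gamma were counted in the same way. Of the 10 that passed in macrophage-like cells none reached 1.5-fold, where 1.48% of all genes did, and Cxcl9, a chemokine for T cells, had 878 CPM and 852 CPM (ratio 0.970, interval 0.946 to 0.994). In monocyte-like cells 9 of 10 reached it (3.28% of all genes), among them Cxcl9 with 177 CPM and 431 CPM (ratio 2.43) and Gbp2, a guanylate-binding protein, with 313 CPM and 616 CPM (ratio 1.97), and in conventional DC-like cells 8 of 10 did (2.01% of all genes). Ciita, the master regulator of MHC class II, was near 1 in both, with 76.0 CPM and 80.9 CPM in monocyte-like cells and 325 CPM and 327 CPM in conventional DC-like cells. The lists share regulators, and neither the difference between the lists nor that between the classes was tested. Of 10 genes known from tissue dissociation, none reached 1.5-fold in macrophage-like, conventional DC-like or T-like cells, and 2 were lower in monocyte-like cells, where 0.938% of all genes were. In granulocyte-like cells 1 was higher (9.06% of all genes) and 2 were lower (6.85%), and 2 of the 8 that passed in mature DC-like cells were lower. In NK-like cells 1 of 9 was lower, and in plasmacytoid DC-like cells 1 of 10 was higher (9.45% of all genes) and 1 lower. The share of all genes that were lower was not counted in mature DC-like, NK-like and plasmacytoid DC-like cells. The lower counts there therefore stand without a background. The part of dissociation in the members' values was not tested.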

How the data were processed

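The authors aligned and counted the reads with Cell Ranger 4.0.0 on mm10, per the submitters' processing notes, and deposited whole-number UMI counts per gene and barcode, not normalized. Whether the depth of the libraries was equalised on joining is not given in the sources used here. Barcodes with at least 200 genes and at most 10% mitochondrial UMIs were kept, and doublets were removed at 0.8% per 1000 cells. Clusters (scanpy 1.11.5, leidenalg 0.10.2, 2000 variable genes without the members and the interferon lists, 30 components, resolution 1) were named from marker lists. For each class the UMIs of a library were added up and expressed as CPM, and log2 ratios carry a pseudocount of 1 CPM. Ratios without a pseudocount have exact conditional binomial intervals and levels exact Poisson intervals (scipy 1.17.1), at 95%. The calculation of ratios and intervals was tested on simulated counts with counting error alone. These had no variation among cells or animals, so that test does not show how the intervals hold for real cells.

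The members, marker lists and pathway lists were chosen with earlier results of these data known. Genes named were those with a mean of at least 100 CPM in macrophage-like cells, the 3 highest and 3 lowest log2 ratios of each of 5 classes, and others with their macrophage-like values. Values of other members outside macrophage-like cells (Isg20, Mx1 and Ifi209 in monocyte-like or dendritic cells among them) were picked after they were seen. Alternatives covered cell filters, doublets, clustering, gates, scaling, thinning, pseudocounts and the filter on low values. Some pathway genes are not reported here.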

Additional observations from a re-analysis of the deposited data

Results flagged for a closer look

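Cmpk2 had a log2 ratio of -0.90 in granulocyte-like cells (93 and 17 UMIs; -0.52 without the barcode with the most member UMIs, -0.44 with the mean of per-cell CPM and 0.19 with marker gates), whereas it was at least 1.5-fold higher in the library labelled KO in macrophage-like, monocyte-like and conventional DC-like cells, and the difference between the classes was not tested. Bst2 had a log2 ratio of -1.05 in B-like cells (41 and 13 UMIs; 5.66% of all genes tested there were at least 1.5-fold lower), whereas it was at least 1.5-fold higher in monocyte-like cells and in the cluster led by Inhba, and this difference was not tested either.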

How the results depend on the processing

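The summed log2 ratio was above 0 under all 16 alternatives in macrophage-like cells (0.48 to 0.87) and under all 15 in monocyte-like (0.6034 to 0.9999), conventional DC-like (0.37 to 0.78) and T-like cells (0.07 to 0.39), and under 13 of 15 in granulocyte-like cells (-0.21 to 0.28). The count of members at least 1.5-fold higher ran from 14 to 30 in macrophage-like cells. Below, values are the summed log2 ratio unless a median log2 ratio or a count of higher members is named, only values that moved beyond their interval or by over 1.5 times are given, and the cause was not tested. Thinning to 500 UMIs, depth groups and joining the clusters led by Ednrb and Inhba to the macrophage-like class were chosen after seeing the data.

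With Leiden resolution 2, macrophage-like cells had 0.61 and monocyte-like cells 0.79. With the 2 led clusters joined, macrophage-like cells had 0.63. In the deepest group of cells the values were 0.48 in macrophage-like, 0.90 in monocyte-like, 0.78 in conventional DC-like, 0.0738 in T-like and -0.0798 in granulocyte-like cells, with medians of 0.46 in macrophage-like, -0.0439 in T-like and -0.18 in granulocyte-like cells. In the shallowest group they were 0.78 in macrophage-like, 0.9999 in monocyte-like, 0.37 in conventional DC-like and 0.28 in T-like cells, with counts of 7 in conventional DC-like, 1 in granulocyte-like and 0 in T-like cells. There Ifit1 in conventional DC-like cells had a log2 ratio of -0.49 and Cmpk2 in granulocyte-like cells 0.47. In the middle group they were 0.57 in macrophage-like, 0.75 in monocyte-like, 0.59 in conventional DC-like and 0.31 in T-like cells, with a median of -0.06 and a count of 1 in granulocyte-like cells, where Cmpk2 had 0.10.

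With doublets kept, macrophage-like cells had 0.80, monocyte-like cells 0.69 (median 0.61) and conventional DC-like cells 0.74, and T-like cells a count of 1. With each library clustered on its own, macrophage-like cells had 0.87, monocyte-like cells 0.92 and T-like cells a count of 4. With equal weight for each cluster, the values were 0.60, 0.66 and 0.58 in macrophage-like, monocyte-like and conventional DC-like cells. With marker gates they were 0.60 in macrophage-like, 0.69 in monocyte-like (median 0.57, count 18), 0.63 in conventional DC-like, 0.29 in T-like and 0.28 in granulocyte-like cells (count 5), where Cmpk2 had 0.19. With members among the variable genes they were 0.55 in macrophage-like, 0.60 in monocyte-like (median 0.51, count 13) and 0.45 in conventional DC-like cells (median 0.45, count 10), with a count of 1 in T-like cells. With the stricter filter on cells they were 0.83 in macrophage-like, 0.66 in monocyte-like (median 0.61) and -0.21 in granulocyte-like cells (median -0.30, count 1).

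With the mean of per-cell CPM, macrophage-like cells had 0.76 and T-like cells 0.33 (median 0.44, count 4), and granulocyte-like cells a count of 5. Thinned to 1000 UMIs, the values were 0.76 in macrophage-like, 0.86 in monocyte-like, 0.63 in conventional DC-like (count 10) and 0.32 in T-like cells (median 0.35, count 6). Thinned to 500 UMIs they were 0.78 in macrophage-like, 0.73 in monocyte-like, 0.59 in conventional DC-like (median 0.42, count 2) and 0.39 in T-like cells (median 0.31), with a count of 5 in granulocyte-like cells. Without a filter on low values the counts were 5 in T-like and 7 in granulocyte-like cells. T-like cells had a count of 1 with a pseudocount of 10 CPM and with scaling for composition, under which granulocyte-like cells had 0.0246. Without the barcode with the most member UMIs the count was 1 in T-like and 1 in granulocyte-like cells.

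No paired analysis was possible because each genotype was 1 library. B-like cells had the fewest member UMIs, so small differences there were not detectable at this depth. The NK-like ratio was 0.935 with and 1.21 without the barcode with the most member UMIs. In conventional DC-like cells the log2 ratio of Cmpk2 ran from 0.04 in the shallowest group to 2.02 in the middle group, and that of Rsad2 from 0.56 in the shallowest to 2.66 in the deepest. In monocyte-like cells it ran from 0.92 to 3.14 for Rsad2, 0.87 to 2.71 for Ifit2 and 0.92 to 2.12 for Isg15, lowest with members among the variable genes and highest in the shallowest group. In granulocyte-like cells Cmpk2 had -2.74 in the deepest group and -1.82 with the stricter filter, and was under 1.5-fold without the top barcode (-0.52), with the mean of per-cell CPM (-0.44) and thinned to 500 UMIs (-0.58). Beside the members named so far, Ifi204 (0.41 to 0.87) and Zbp1 (0.47 to 1.10) in macrophage-like, Oasl2 (0.21 to 0.72), Rnf213 (0.55 to 1.22) and Ifi35 (0.24 to 2.13) in granulocyte-like and Eif2ak2 (0.39 to 1.42) in T-like cells were past 1.5-fold as reported and under it in at least 1 setting. Members under 1.5-fold that went past it in at least 1 setting included Bst2 (0.0973 to 0.82), Rnf213 (0.38 to 0.73) and Trim30a (0.2991 to 0.66) in macrophage-like and Oas3 (0.0838 to 1.33) in T-like cells. Named members under 1.5-fold that changed sign were Dhx58 in monocyte-like (-0.27) and Eif2ak2 (-0.21) and Ddx60 (-0.29) in macrophage-like cells when thinned to 500 UMIs, Samd9l (0.46) and Ddx58 (0.22) in T-like cells likewise, Ifit2 in granulocyte-like cells with marker gates (0.63), Herc6 there in the deepest group (0.40), Dtx3l in T-like (0.30) and Tor3a in conventional DC-like cells (-0.22) in the shallowest group, and Ifi35 in conventional DC-like cells (-0.12) in the middle group. The settings given are those of the largest change, and some of these members changed sign in others too. In macrophage-like cells Ddx60 had -0.14 when thinned to 1000 UMIs, and was above 0 under 16 of 19 alternatives, and Eif2ak2 under 17 of 19.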
